A study of Mus musculus with 2 samples.

Results

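The Mir17-92 cluster is a group of 6 miRNA hairpins on the plus strand of mouse chromosome 14. Its members Mir17, Mir18, Mir19a, Mir20a, Mir19b-1 and Mir92-1 were taken by gene symbol, as the hairpins that lie in the host transcript Mir17hg, and they are 6 of the 1973 miRNA genes in the count tables. The samples are facial prominences, the outgrowths that build the face and jaws, from healthy B6NCrl mouse embryos at embryonic day 10.5. They form 1 group with 2 biological replicates, in which replicate 2 pooled 51 embryos and replicate 1 pooled 69, with males and females in each pool. No embryo was treated or mutant, so the comparisons are between hairpins within the tissue and between the pools. Each pool mixes epithelium, mesenchyme and vessels, and in such bulk RNA a change in cell number and a change in RNA per cell cannot be told apart.

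All 6 hairpins are cut from 1 long primary transcript, first by Drosha in the nucleus and then by Dicer, and 1 arm of each hairpin, the guide, is loaded into an Argonaute protein. The bases near the guide's 5′ end, its seed, pair with target mRNAs. The cluster is known for promoting proliferation and survival in embryonic and tumour cells. Mice that lack it die at birth with small lungs and heart defects, orofacial clefts have been described in such mutants, and in humans loss of the host gene causes a form of Feingold syndrome.

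The guide sequences show which members can act on the same targets. They are printed 5′ to 3′ with the seed, bases 2 to 8, in capitals, as given by RefSeq for GRCm38.p6. RefSeq held a guide for each of the 6 members.
Mir17 (miR-17-5p, chr14:115043684-115043706): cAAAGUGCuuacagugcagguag
Mir20a (miR-20a-5p, chr14:115044183-115044205): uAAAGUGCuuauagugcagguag
Mir18 (miR-18a-5p, chr14:115043867-115043889): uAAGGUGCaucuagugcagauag
Mir19a (miR-19a-3p, chr14:115044048-115044070): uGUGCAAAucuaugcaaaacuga
Mir19b-1 (miR-19b-3p, chr14:115044358-115044380): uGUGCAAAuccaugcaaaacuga
Mir92-1 (miR-92a-3p, chr14:115044476-115044496): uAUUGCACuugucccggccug
Mir17 and Mir20a share a seed, and their guides differ at 2 of 23 bases, C1U and C12U, counted from 1 at the 5′ end with the Mir17 base first. Mir19a and Mir19b-1 share another seed and differ at 1 base, U11C, with the Mir19a base first. Mir18 has a seed that differs from that of Mir17 at A4G. Mir92-1 has the fourth seed. From work in human and mouse cells, the miR-17 and miR-20a guides are known to repress the cell cycle inhibitor Cdkn1a, the miR-18a guide the matrix protein gene Ctgf, and the miR-92a guide the integrin gene Itga5 in vessels.

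In mm10 coordinates the hairpins span chr14:115043671-115044506, which is 836 bases, and each lies in exon 2 of Mir17hg (ENSMUSG00000089726.2, chr14:115042879-115046727), a long non-coding RNA of 2 exons. From the 5′ end their order is Mir17, Mir18, Mir19a, Mir20a, Mir19b-1 and Mir92-1, with gaps of 35 to 96 bases. The guide lies on the 5′ arm in Mir17, Mir18 and Mir20a and on the 3′ arm in Mir19a, Mir19b-1 and Mir92-1. The host transcript itself has no row in the miRNA tables, and its level was not analysed here.

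Reads counted in the sense direction of annotated miRNA genes came to 3517226 in replicate 2 and 2853511 in replicate 1. A level is given as CPM, the count of a hairpin per 1000000 such reads. With these totals a count of 0 leaves room for up to 3 counts, or 0.853 and 1.05 CPM. The guides are 21 to 23 bases long and each read covers about 1 of them, so levels of different hairpins were not divided by length. Intervals cover counting error only and leave out variation between pools. Reads copied by PCR are not independent molecules, so the intervals can be too narrow even for counting error. The tissue label was checked against marker hairpins. Mir214, made in facial mesenchyme, had 13802 CPM in replicate 2 and 15275 CPM in replicate 1. Mir205, of surface epithelium, had 8685 and 9689 CPM. Each was the highest in a list of 7 hairpins. The whole mesenchyme list held 27041 and 30706 CPM, and the epithelium list 23965 and 28691 CPM. The mesenchyme list was uneven, with only 7.96 and 13.3 CPM for Mir199a-1, 124 and 139 for Mir145a and 192 and 177 for Mir199a-2. Mir10a, of the posterior body axis, had 347 and 156 CPM. The 6 listed hairpins of the posterior body axis, from the Hox clusters, summed to 633 and 378 CPM. The 5 muscle hairpins with a matched gene had sums of 22.5 and 34.3 CPM, with Mir133a-1 and Mir133a-2 at 0 in both libraries. Where hairpin copies share a sequence, its reads are left uncounted. The 0 values of Mir133a-1 and Mir133a-2 therefore cannot show that muscle was absent, and the muscle sum may be too low. The same limit can apply to Mir199a-1 and Mir199a-2, and to Mir196a-1 and Mir196a-2 in the Hox list. The low values of Mir199a-1 and Mir199a-2 and the Hox sum may thus be too low as well. The 3 erythroid hairpins had a sum of 205 CPM in replicate 2 and of 420 CPM in replicate 1, and the 3 leukocyte hairpins with a matched gene summed to 422 and 433 CPM.

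The cluster held 16.7% of the counts assigned to miRNA genes in replicate 2 (exact Clopper-Pearson 95% interval 16.65% to 16.73%) and 16.6% in replicate 1 (16.56% to 16.64%). Its mean was 16.6% ± 0.0635 (SD, n = 2). Of all reads in the libraries, unmapped and unassigned ones included, it held 6.79% in replicate 2 and 6.94% in replicate 1. Nearly all of them came from 4 members, and the members on the same transcript were far from equal. Reads that map to several places, 25.9% of reads in replicate 2 and 27.6% in replicate 1, are not in the gene counts. The share of gene counts and the ranks below can therefore favour hairpins whose guide has no copy.

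Mir17 had 99861 CPM in replicate 2 and 103291 CPM in replicate 1, from 351233 and 294741 counts. By assigned reads it was the second highest of the 1973 genes in each library. Mir20a, which shares its seed, had 40967 and 38641 CPM, and was ranked 3 in replicate 2 and 4 in replicate 1. Mir18 had 15597 and 14552 CPM, and ranked 13 and 14. These 3 hairpins carry their guide on the 5′ arm, and no other member reached the lowest of their values in either library. For Mir19b-1 and Mir92-1, reads that also fit a copy of the guide in another cluster are not counted.

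Mir92-1 had 10178 CPM in replicate 2 and 9216 CPM in replicate 1, with ranks of 19 and 21. The miR-19 hairpins were much lower. Mir19a had 218 and 230 CPM (767 and 657 counts), and Mir19b-1 had 89.0 and 83.4 CPM (313 and 238 counts). They ranked 169 and 164 for Mir19a, and 215 and 220 for Mir19b-1. Both were far above the limit of 3 counts and thus clearly detected.

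**Figure D1:**
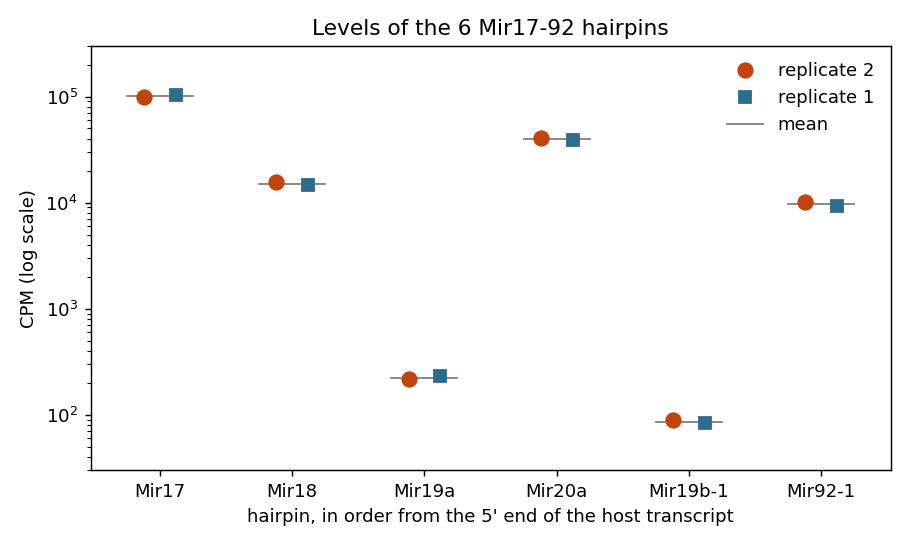
CPM of each hairpin (y axis, log scale) in the order of the host transcript (x axis), with circles for replicate 2, squares for replicate 1 and a line for the mean. Mir17 stands at 99861 and 103291 CPM, Mir19a and Mir19b-1 stand between 83.4 and 230 CPM, and the 2 libraries almost coincide for every hairpin.

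The order of the members was the same in both libraries, Mir17, Mir20a, Mir18, Mir92-1, Mir19a and Mir19b-1, and no neighbours in that order had overlapping values. The level of Mir17 was 2.56 ± 0.167 times that of Mir20a (SD of the ratio, n = 2). Mir20a had 2.64 ± 0.0204 times the level of Mir18, and Mir18 had 1.56 ± 0.0329 times that of Mir92-1. The widest step was from Mir92-1 to Mir19a, with a ratio of 43.4 ± 4.70. Mir19a had 2.61 ± 0.219 times the level of Mir19b-1. From the highest to the lowest member the ratio was 1122 in replicate 2 and 1238 in replicate 1. Levels did not follow the place on the transcript, since the lowest members lie at the third and the fifth place, beside Mir20a. With 2 libraries an exact permutation test of 2 values against 2 cannot go below p = 0.333, so no test between levels was made.

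As a share of the cluster's own counts, Mir17 made up 59.8% in replicate 2 (exact 95% interval 59.7% to 59.95%) and 62.2% in replicate 1 (62.1% to 62.4%). Mir20a made up 24.5% and 23.3%. Mir18 had 9.34% and 8.77%, and Mir92-1 had 6.10% and 5.55%. Mir17 took the smaller share in replicate 2, and the other 3 took the larger one. The intervals of these 4 shares did not overlap between the libraries, but they cover counting error alone and are narrow at such counts, and the shares are tied to each other because they sum to 100%. No test of the make-up was made. Mir19a (0.131% and 0.139%) and Mir19b-1 (0.0533% and 0.0502%) had overlapping intervals.

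A pair of the members cannot be counted in full. The miR-19b guide of Mir19b-1 is found unchanged in Mir19b-2, and the miR-92a guide of Mir92-1 in Mir92-2, both in the Mir106a-363 cluster of the X chromosome. The other 4 guides occur in 1 RefSeq hairpin each. Reads that map to several places, 25.9% of all reads in replicate 2 and 27.6% in replicate 1, were not assigned to a gene, so the values of Mir19b-1 and Mir92-1 rest on reads that tell the copies apart. Such reads can come from either arm of the hairpin, because the counts do not separate the arms. The hairpins of each pair are shown here, with the longest stretch that the copies share in capitals, to show how little a read has to reach beyond the guide to become unique.
Mir19b-1 (chr14:115044305-115044391, plus strand): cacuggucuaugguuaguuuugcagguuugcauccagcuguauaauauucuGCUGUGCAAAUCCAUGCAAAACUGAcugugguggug
Mir19b-2 (chrX:52741983-52742066, minus strand): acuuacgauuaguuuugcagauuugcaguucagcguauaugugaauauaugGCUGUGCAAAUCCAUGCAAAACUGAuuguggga
Mir92-1 (chr14:115044427-115044506, plus strand): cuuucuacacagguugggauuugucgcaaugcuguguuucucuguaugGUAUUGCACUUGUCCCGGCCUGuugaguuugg
Mir92-2 (chrX:52741838-52741928, minus strand): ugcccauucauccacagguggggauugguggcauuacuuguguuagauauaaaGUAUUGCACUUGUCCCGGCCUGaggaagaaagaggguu
The miR-19b copies share 25 bases, of which 2 lie before the guide and 0 after it. The miR-92a copies share 22 bases, of which 1 lies before the guide and 0 after it. In each pair 1 further base at the 3′ end already differs. The guide of Mir19a has no copy in another RefSeq hairpin, and the longest stretch this hairpin shared with one was 13 bases. Copies elsewhere in the genome were not searched for. The tables do not give unassigned reads by hairpin, and their part in the levels of the miR-19 hairpins and Mir92-1 was not tested.

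The hairpins themselves were alike in length (80 to 107 bases) and GC content (43.7% to 47.5%). The minimum free energy that RNAfold computed was -38.7 kcal/mol for Mir19a, -38.6 for Mir20a, -37.8 for Mir19b-1, -36.7 for Mir17, -34.0 for Mir92-1 and -29.2 for Mir18. Per base it was -0.472 kcal/mol for Mir19a, -0.437 for Mir17, -0.434 for Mir19b-1, -0.425 for Mir92-1, -0.361 for Mir20a and -0.304 for Mir18. The guides of Mir19a and Mir19b-1 had 8 and 9 G or C bases of 23, and that of Mir20a had 9. Mir17 had 11 of 23, Mir18 had 10 of 23 and Mir92-1 had 12 of 21. These are descriptions of 6 sequences, and a link between them and the counts was not tested.

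Guides with the same seed are held by other hairpins too, so the counts of each seed family were summed over every hairpin in the tables with that seed on its RefSeq guide. These counts sum both arms of a hairpin. Reads of the arm without the guide are thus included, and their part is not known. The miR-17 seed was carried by 7 hairpins, Mir17, Mir20a, Mir106a, Mir20b, Mir106b, Mir93 and Mir6383. Together these had 190703 CPM in replicate 2 and 188696 CPM in replicate 1, and Mir6383 was at 0 in both libraries. The Mir17-92 members gave 73.8% of the family in replicate 2 (exact 95% interval 73.7% to 73.95%) and 75.2% in replicate 1 (75.1% to 75.3%). Of single hairpins, Mir17 alone gave 52.4% and 54.7%, Mir20a 21.5% and 20.5%, Mir93 10.7% and 10.98%, and Mir106b 8.18% and 7.52%.

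The miR-18 seed had 2 hairpins and 16155 CPM in replicate 2 and 14985 CPM in replicate 1. Mir18 held 96.6% and 97.1% of it, and Mir18b the rest. The miR-19 seed had 3 hairpins and 339 CPM in each library, and Mir19a and Mir19b-1 held 90.6% of it in replicate 2 and 92.5% in replicate 1. The cluster does not share the seeds of miR-18 and miR-19 with the Mir106b-25 cluster. The counts of hairpins with these seeds thus came almost wholly from the Mir17-92 hairpins. In the miR-19 family this split counts only reads that could be placed in 1 hairpin.

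The miR-92 seed had the most mixed sources, and the lowest share from the cluster among the 4 seeds. Its 7 hairpins reached a sum of 22678 CPM in replicate 2 and of 18279 CPM in replicate 1, and Mir92-1 gave 44.9% (exact 95% interval 44.5% to 45.2%) and 50.4% (49.99% to 50.8%). Mir92b, a lone hairpin on chromosome 3, gave 22.8% and 17.3%, and had 5162 CPM in replicate 2 and 3160 CPM in replicate 1. Mir363 gave 20.2% and 18.7%, Mir25 5.53% and 7.22%, Mir92-2 4.87% and 4.35%, and Mir32 1.74% and 1.97%. Mir367 had 5.97 and 3.50 CPM. The miR-92a reads that could not be told apart between Mir92-1 and Mir92-2 are missing from this sum.

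**Figure D2:**
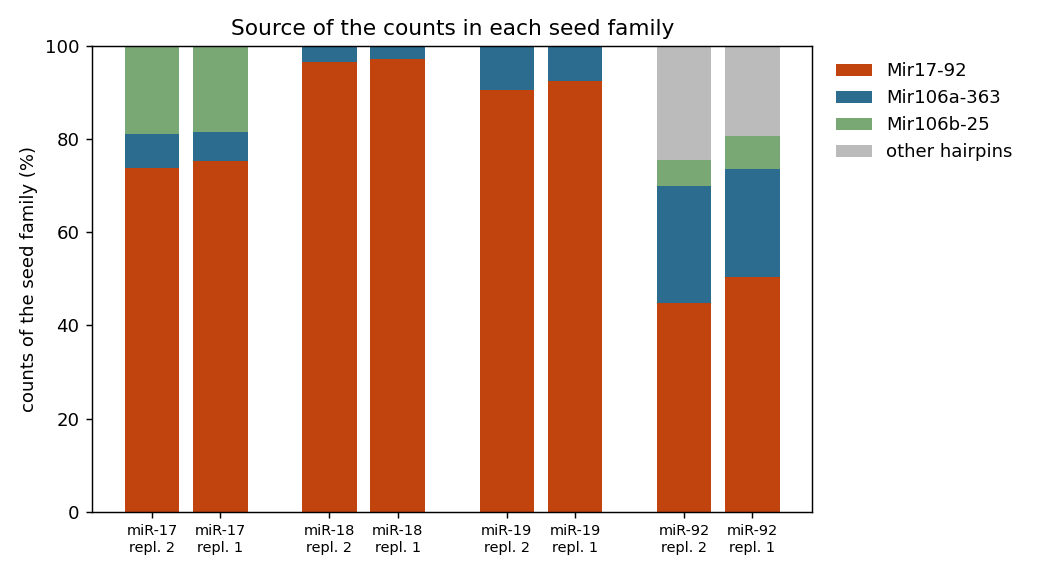
Percentage of the counts of each seed family (y axis) that came from the Mir17-92 cluster, its paralog clusters and other hairpins, with replicate 2 left of replicate 1 in each family. The Mir17-92 part is 96.6% and 97.1% in the miR-18 family, 90.6% and 92.5% in the miR-19 family, 73.8% and 75.2% in the miR-17 family and 44.9% and 50.4% in the miR-92 family.

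The paralog clusters, copies of Mir17-92 that arose by duplication, were lower as a whole. The 6 hairpins of Mir106a-363 on the X chromosome had a sum of 20130 CPM in replicate 2 and of 16525 CPM in replicate 1, and the 3 hairpins of Mir106b-25, in an intron of the replication gene Mcm7, summed to 37273 and 36238 CPM. The Mir17-92 cluster had 166911 and 166013 CPM. To show how close the relatives are in sequence, the guides with the miR-17 and miR-18 seeds in the paralog clusters are printed here, again with the seed in capitals.
Mir106a (chrX:52742541-52742563, minus strand): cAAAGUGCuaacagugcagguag
Mir20b (chrX:52742159-52742181, minus strand): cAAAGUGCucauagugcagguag
Mir18b (chrX:52742381-52742403, minus strand): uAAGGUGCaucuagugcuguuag
Mir106b (chr5:138165787-138165807, minus strand): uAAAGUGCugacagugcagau
Mir93 (chr5:138165574-138165596, minus strand): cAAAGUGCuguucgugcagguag
Against the Mir17 guide, that of Mir106a differs at 1 base, U10A, and that of Mir106b at 3 of the 21 bases compared, C1U, U10G and G20A. Against the Mir20a guide, Mir20b differs at U1C and U10C, and Mir93 at U1C, U10G, A11U and A13C. Mir18b differs from Mir18 at A18U and A20U. None of these differences lies in the seed.

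In 8 of 8 pairs the Mir17-92 member was higher than its relative in both libraries. Mir19a and Mir363 were in no pair. The ratio of Mir17 to Mir106a was 11.4 in replicate 2 and 13.5 in replicate 1, and that of Mir17 to Mir106b was 6.40 and 7.28. Mir18 had 28.0 and 33.6 times the level of Mir18b, which was the widest of the 8 ratios. Mir20a had 7.98 and 9.24 times the level of Mir20b but only 2.01 and 1.86 times that of Mir93, the narrowest ratio. Mir93, the highest paralog hairpin, had 20412 and 20725 CPM. Mir92-1 had 8.12 and 6.98 times the level of Mir25. Where copies share the guide, and only reads unique to a hairpin count, Mir92-1 had 9.22 and 11.6 times the level of Mir92-2, and Mir19b-1 had 2.79 and 3.26 times that of Mir19b-2. The differences between these ratios were not tested.

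**Figure D3:**
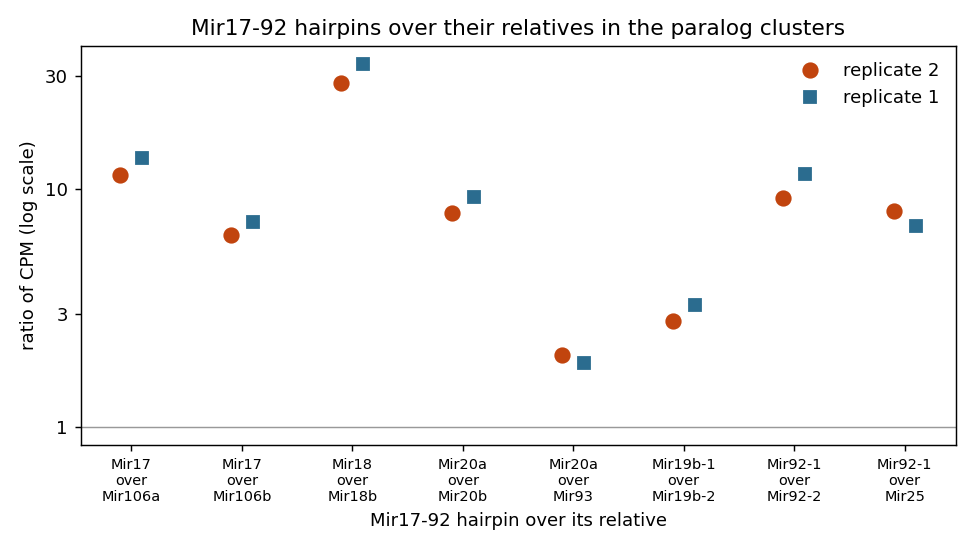
Ratio of CPM of a Mir17-92 hairpin to its relative in a paralog cluster (y axis, log scale) for 8 pairs (x axis), with circles for replicate 2 and squares for replicate 1. All points lie above 1, from 1.86 for Mir20a over Mir93 to 33.6 for Mir18 over Mir18b.

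In the joint order of the 15 hairpins of the 3 clusters by mean CPM, 12 of 14 neighbouring pairs had values that did not overlap between the libraries. The exceptions were Mir18 and Mir106b, with 15597 and 14552 CPM for Mir18 and 15607 and 14192 CPM for Mir106b, and Mir20b and Mir363. Mir18 and Mir106b changed places between the libraries and were not separated. By guide class the miR-17 and miR-20 hairpins led each of the clusters in assigned counts, and the miR-19 hairpins had the lowest counts wherever they occur. For Mir19b-1 and Mir19b-2, which share a guide, only reads unique to 1 hairpin were counted, so their true levels may be higher.

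Between the pools the members differed little. The log2 ratio of replicate 2 over replicate 1 was -0.05 for Mir17 (exact 95% counting interval -0.056 to -0.042), 0.08 for Mir20a (0.073 to 0.096), 0.10 for Mir18 (0.082 to 0.12) and 0.14 for Mir92-1 (0.12 to 0.17). It was -0.08 for Mir19a (-0.23 to 0.074) and 0.09 for Mir19b-1 (-0.15 to 0.34), intervals that include 0. By two-sided exact binomial tests with Benjamini-Hochberg adjustment over 449 genes, which compare these 2 libraries beyond counting error and not conditions, Mir18 (adjusted p = 9.44e-26), Mir20a (2.37e-47) and Mir92-1 (1.52e-33) were higher in replicate 2. Mir17 (1.51e-40) was lower in replicate 2. Mir19a (0.494) and Mir19b-1 (0.635) did not pass, and at their counts differences within the intervals given could not be detected.

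That 4 of 6 members passed is to be read against all genes. Of the 449 genes tested, 181 (40.3%) passed, 20.0% higher and 20.3% lower in replicate 2. Of the 104 genes that averaged 1000 CPM or more, 91.3% passed, 46.2% higher and 45.2% lower in replicate 2, and the 4 members that passed are all among those, so passing was the rule at their level. The sizes are more telling. The members' absolute log2 ratios had a median of 0.09 and a highest value of 0.14, while the median over the 320 genes that averaged 10 CPM or more was 0.18, and over the 104 genes 0.17. The SD of the log2 ratio over the 320 genes was 0.40. The median of the signed ratio was 0.09 for the members and 0.03 for the 320 genes. The summed cluster had a log2 ratio of 0.01, with the lower Mir17 and the higher Mir18, Mir20a and Mir92-1 offsetting each other.

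The Mir106a-363 hairpins lay higher in replicate 2, from 0.19 for Mir106a to 0.47 for Mir92-2 on the log2 scale. Of the 6 hairpins 5 passed as higher, against 20.0% of all genes tested, with Mir19b-2 as the exception. Among genes that averaged 1000 CPM or more, as Mir106a, Mir20b and Mir363 did, 46.2% passed as higher. The sum of the Mir106a-363 hairpins had a log2 ratio of 0.28. The Mir106b-25 hairpins had -0.02 (Mir93), -0.08 (Mir25) and 0.14 (Mir106b), and a summed ratio of 0.04. All 3 passed, Mir106b as higher and Mir93 and Mir25 as lower in replicate 2, against 40.3% of all genes tested in either direction. All 3 averaged more than 1000 CPM, and at that level 91.3% of genes passed, so passing was the rule for them too. These values stand beside those of the Mir17-92 members, from -0.08 to 0.14, and the difference between the clusters was not tested. Since Mir92-2 (0.47), Mir363 (0.42) and Mir92b (0.71) were all higher in replicate 2, the share of Mir92-1 in its seed family was smaller there although Mir92-1 itself was higher.

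**Figure D4:**
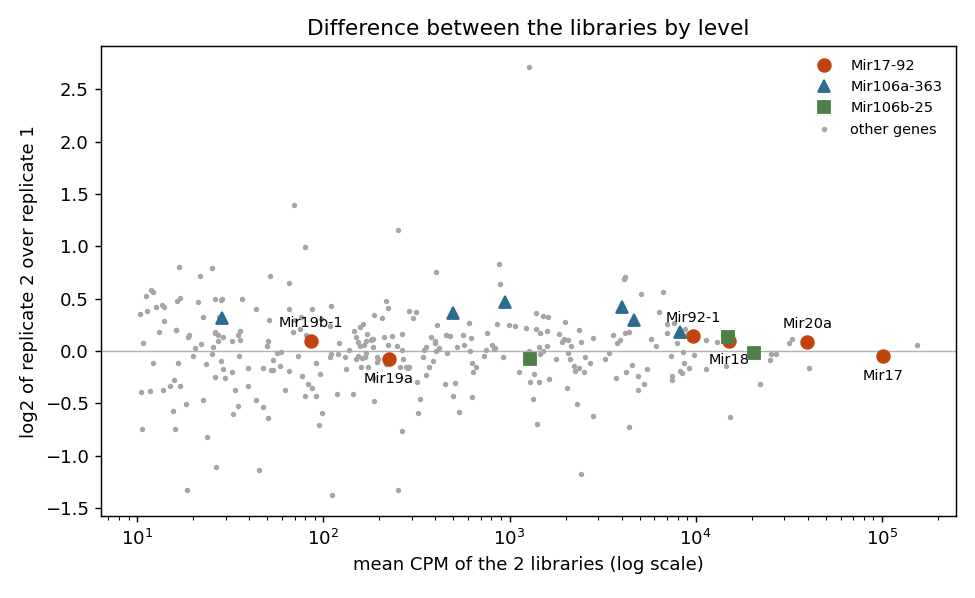
Log2 ratio of replicate 2 over replicate 1 (y axis) by mean CPM (x axis, log scale) for the 320 genes that averaged 10 CPM or more, with circles for Mir17-92, triangles for Mir106a-363, squares for Mir106b-25 and dots for other genes. The Mir17-92 hairpins lie between -0.08 and 0.14, and the Mir106a-363 hairpins between 0.19 and 0.47.

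In the order of all genes by mean CPM, Mir17 stood between Mir335 with 157233 and 150559 CPM and Mir99a with 38635 and 43118 CPM. Mir335 exceeded Mir17 by 1.57 times in replicate 2 and 1.46 times in replicate 1. Mir20a lay between Mir99a and Mir126a, a miRNA of endothelium with 34369 and 31642 CPM, and Mir20a and Mir99a exchanged their ranks between the libraries. Mir18 lay next to Mir182 (12039 and 18633 CPM) and Mir106b, and its own values fell inside the range of either. Mir92-1 lay between Mir487b (9609 and 9868 CPM) and Mir205, and its values overlapped with those of both. Mir19a had Mir301b and Mir3074-1 as neighbours, and Mir19b-1 had Mir152 and Mir6944. Among genes of at least 1000 CPM outside the seed families, Mir434, Mir674 and Mir423 had log2 ratios between the libraries nearest to that of the cluster sum, with 0.00, 0.00 and -0.01. This likeness rests on 2 libraries.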

How the data were processed

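MicroRNA sequencing of small RNA (inserts below 30 nt) was deposited as 1 table of raw counts per library. Per the text files deposited with them, the counts are on mm10 with GENCODE annotation M4, and no aligner or counting tool is named, so both are not given in the sources used. The authors' tables give, for each of 1973 miRNA genes, a count on either strand, on the gene's strand and on the opposite strand, after 4 summary lines. The strand counts add to the first one in every gene. Sense counts were used (97.6% of gene counts in each library), and they sum both arms of a hairpin. The summary lines were left out of totals. Unmapped reads made up 24.1% of 8643947 in replicate 2 and 21.6% of 6828248 in replicate 1.

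Symbols and coordinates came from GENCODE M21, which matched 1894 gene identifiers; the other 79 had at most 3 counts in all. Sequences came from RefSeq (GRCm38.p6), and all 19 hairpins of the seed families matched. Guide arms were taken from general knowledge. CPM, shares and exact Clopper-Pearson intervals (95%) were computed with scipy 1.17.1. For 2 libraries the SD equals the difference divided by the square root of 2. Genes with at least 10 counts in all were compared by exact binomial tests, with a threshold of 0.05. The tests were tried on simulated Poisson counts, which hold no variation between pools. That trial therefore cannot show how the tests behave where pools vary. Tests of conditions in edgeR or DESeq2 could not be fitted with 1 group; edgeR 4.0.16 gave TMM factors and DESeq2 1.42.0 size factors as alternatives. Folds were computed with RNAfold 2.7.2.

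The members and lists were chosen with earlier results of these data known. Named were the members, the paralogs, hairpins sharing a seed (with a value at or above 100 CPM, besides Mir367 and Mir6383, named after their values were seen), each member's neighbours in level, and the 3 genes nearest to the cluster sum in the ratio between libraries. Mir142 and Mir1a-2 had no matched gene.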

Additional observations from a re-analysis of the deposited data

How the results depend on the processing

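Of 127 alternative values over 32 results and 12 settings, 119 stayed within the spread between the libraries, or on the same side of the threshold and in the same direction. That holds by construction where 1 of the 2 libraries was left out. The same counts also entered the member shares under the unstranded count, the family shares from any strand and the log2 ratios at a minimum of 1 count. These values could not move, so the tally is a weak check. None of the log2 ratios between the libraries changed sign or call with TMM sizes, DESeq2 size factors, the unstranded count or a minimum of 1 count, and 4 members passed under each of these and with a minimum of 50 counts. The share of the cluster in all counts depends on its denominator. It was 16.6% of counts on the gene strand, 16.2% of the unstranded count, 19.7% without Mir335 in the total and 6.86% of all reads. With the unstranded count the level of Mir17 was 99100 CPM, through a larger total, since no member had a read on the opposite strand. Without Mir19b-1 and Mir92-1 in the sum, Mir17 made up 64.8%, Mir20a 25.4%, Mir18 9.62% and Mir19a 0.143%. Taking the seed from any annotated strand gave the same hairpins. No paired analysis of conditions was possible because there is 1 group. Precision is limited by 2 libraries for the levels, and by counts of 767 or fewer per library for Mir19a and Mir19b-1.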
